A study of Mus musculus with 33 samples.

Results

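The comparison described here is that of CpG ODN with control ODN after 2 h of culture, the earliest time at which RNA was taken in this study of mouse spleen cells. It rests on 8 of the 33 arrays, 4 with CpG ODN and 4 with control ODN, picked by their titles, and the 4 medium arrays of the same time serve as a second baseline. An oligodeoxynucleotide (ODN) is a short synthetic single-stranded DNA. The CpG ODN group received an equimolar mix of ODN 1555 and ODN 1466 at 1 uM, the control ODN group an equimolar mix of ODN 1612 and ODN 1471, which lack CpG motifs, at 1 uM, and the medium group no ODN. All groups were single-cell suspensions of whole spleen from female BALB/c mice aged 2 months, kept at 37 C. The cells were not sorted, so each value is an average over B cells, T cells, macrophages, dendritic cells and the other cells of the organ, in which more expressing cells and more RNA per cell cannot be told apart. The study's design text calls the repeats independent experiments, and the labels do not say how many mice went into each culture.

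DNA with unmethylated CpG motifs, common in bacteria and rare in mammals, is taken up into endosomes and recognised there by Toll-like receptor 9 (Tlr9), which in mouse spleen is found in B cells, dendritic cells and macrophages. Tlr9 signals through the adaptor Myd88 and the IRAK and TRAF6 proteins to the IkB kinases and the MAP kinases. NF-kB and AP-1 then enter the nucleus and switch on a first wave of genes that need no new protein, among them cytokines, chemokines and the inhibitors that later end the signal. Interferon-induced genes follow later, since interferon has to be made and sensed first.

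Each value is the log2 ratio of spleen cell RNA, labelled with Cy5, over a common reference RNA labelled with Cy3, which was a pool of mouse tissues and cell types. A negative ratio therefore means less of a transcript than in the pool, and a difference of 1 between groups is a 2-fold difference. Arrays were centred on their medians. The term called stands for a limma adjusted p under 0.05, with Benjamini-Hochberg adjustment over all genes tested. Standard errors (SE) and 95% confidence intervals of differences come from that fit, and errors of group means are SD over arrays. The number of probes with a value ran from 9879 to 11129 on the CpG ODN arrays, from 7908 to 10901 on the control ODN arrays and from 9696 to 10874 on the medium arrays, with the lowest on control ODN replicate 4. Of the 64 genes with values on all 4 CpG ODN arrays but on at most 1 control ODN array none could be tested, whereas 1 gene had the opposite pattern. The part of this imbalance in the results was not tested. The spleen label matched the markers of its main cells: the mean log2 ratio over 10 B cell markers measured on all 12 arrays of 2 h lay between 1.84 and 2.52, and over 6 T cell markers between 1.85 and 2.89, against -2.00 to -1.36 for 4 markers of non-splenic tissues of the pool.

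After 2 h, 4 genes were called higher with CpG ODN and none lower: Nfkbiz, Tnf, Ptgs2 and Ccl3. They encode a nuclear regulator of NF-kB, a cytokine, the inducible enzyme of prostaglandin synthesis and a chemokine, and their levels were 3.06 to 5.09 times those with control ODN. With 9302 genes tested, the 4 are 0.0430% called higher, and 0% were called lower by limma. Before adjustment, 100 genes were higher (1.08%) and 113 lower (1.21%) at p below 0.05. Together they are 2.29% of the genes, less than the share of 0.05 that this cutoff gives where no gene differs. The reason was not tested. The 4 genes lie on 4 chromosomes, 16, 17, 1 and 11.

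The promoter windows of the called genes are shown because NF-kB is the best known switch of first-wave genes. Each runs from 250 bases before to 50 bases after the transcription start in RefSeq (GRCm38.p6), read 5′ to 3′ on the strand of the gene, and RefSeq's table had a window for 3 of the 4 called genes (Tnf at chr17:35201958-35202257 on the minus strand, Ptgs2 at chr1:150099781-150100080 on the plus strand and Ccl3 at chr11:83649329-83649628 on the minus strand). Capitals mark matches to NF-kB motifs.
Tnf: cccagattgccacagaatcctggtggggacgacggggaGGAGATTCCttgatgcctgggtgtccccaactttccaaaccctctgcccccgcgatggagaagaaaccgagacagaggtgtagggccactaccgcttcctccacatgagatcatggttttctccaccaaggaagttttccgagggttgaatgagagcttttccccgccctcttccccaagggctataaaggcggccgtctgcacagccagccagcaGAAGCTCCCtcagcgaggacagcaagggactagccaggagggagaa
Ptgs2: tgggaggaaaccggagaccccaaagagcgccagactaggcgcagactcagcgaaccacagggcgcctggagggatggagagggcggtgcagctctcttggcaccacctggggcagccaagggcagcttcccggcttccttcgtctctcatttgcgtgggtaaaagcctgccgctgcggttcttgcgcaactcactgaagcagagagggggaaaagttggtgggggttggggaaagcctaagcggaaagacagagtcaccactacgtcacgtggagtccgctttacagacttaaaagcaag
Ccl3: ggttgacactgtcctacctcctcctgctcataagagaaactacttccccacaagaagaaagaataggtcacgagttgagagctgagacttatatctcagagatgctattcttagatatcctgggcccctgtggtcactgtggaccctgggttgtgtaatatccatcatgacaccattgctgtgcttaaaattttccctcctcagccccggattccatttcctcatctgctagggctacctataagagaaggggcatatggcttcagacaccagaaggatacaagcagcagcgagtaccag
The motifs searched on both strands were GGGANNTTC, GGGNNTTTC and GGANNTTCC, which can overlap each other, and at least 1 of them stands in 9.69% of the 32851 windows of this length. The Tnf window held 2 matches, GGAGATTCC at -212 and, on the opposite strand, GGGAGCTTC at 5, counted with the start site as 1 and the base before it as -1. It also held the TATA box letters TATAAA, found in 13.6% of windows, at -29. The Ptgs2 and Ccl3 windows held 0 matches, as did those of the 11 genes with a window among the 12 higher near misses described below. None of the 3 printed windows held the AP-1 letters TGANTCA, present in 7.81% of all windows, or the CRE letters TGACGTCA, present in 1.79%. These are letter matches in a short window and show no binding.

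Nfkbiz encodes IkB-zeta, an atypical IkB protein that is itself made in response to Toll-like receptors and that acts in the nucleus as a cofactor of NF-kB at later targets such as Il6 and Il12b. Its log2 ratio was 2.10, 2.06, 2.21 and 2.64 on the CpG ODN arrays, against 0.65, 0.06, 0.31 and 0.34 on the control ODN arrays. On medium arrays it was -0.09, 0.32, 0.48 and 0.54. All CpG ODN values thus lay above all others, and control ODN and medium overlapped. The difference from control ODN was 1.91 ± 0.19 (SE, interval 1.53 to 2.30), and the gene had the smallest adjusted p of the comparison, 3.70e-07 by limma.

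Tnf encodes tumour necrosis factor, an early inflammatory cytokine of macrophages, dendritic cells and lymphocytes. It reached 3.52, 3.22, 3.52 and 3.61 with CpG ODN, against 1.58, 1.00, 0.81 and 1.36 with control ODN, and was 0.54, 0.82, 1.15 and 1.40 in medium. The CpG ODN arrays were the closest together of the 3 groups, with an SD of 0.17, against 0.35 for control ODN and 0.38 for medium. The rise over control ODN was 2.28 ± 0.23 (SE, interval 1.80 to 2.76, limma adjusted p = 6.53e-07), a 4.85-fold difference.

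Ptgs2, which encodes the inducible cyclooxygenase, was far below the reference pool in every group. Its ratio was -1.90, -0.99, -1.08 and -2.44 with CpG ODN, against -3.90, -3.89, -3.89 and -4.12 with control ODN and -4.45, -3.42, -3.81 and -3.97 in medium. The CpG ODN arrays lay above all the others but spread more than those of the other called genes, with an SD of 0.69 and the lowest value on replicate 4. The rise was 2.35 ± 0.31 (SE, interval 1.71 to 2.99, limma adjusted p = 8.36e-05).

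Ccl3, a chemokine that draws in macrophages, T cells and NK cells, stood above the reference pool with CpG ODN and below it in both controls. The values were 0.83, 1.15, 1.08 and 1.07 with CpG ODN, against -0.95, -0.77, -0.44 and -0.16 with control ODN and -0.77, -0.68, -0.57 and -0.17 in medium. The rise was 1.61 ± 0.22 (SE, interval 1.16 to 2.07, limma adjusted p = 1.10e-04), the smallest of the 4.

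**Figure D1:**
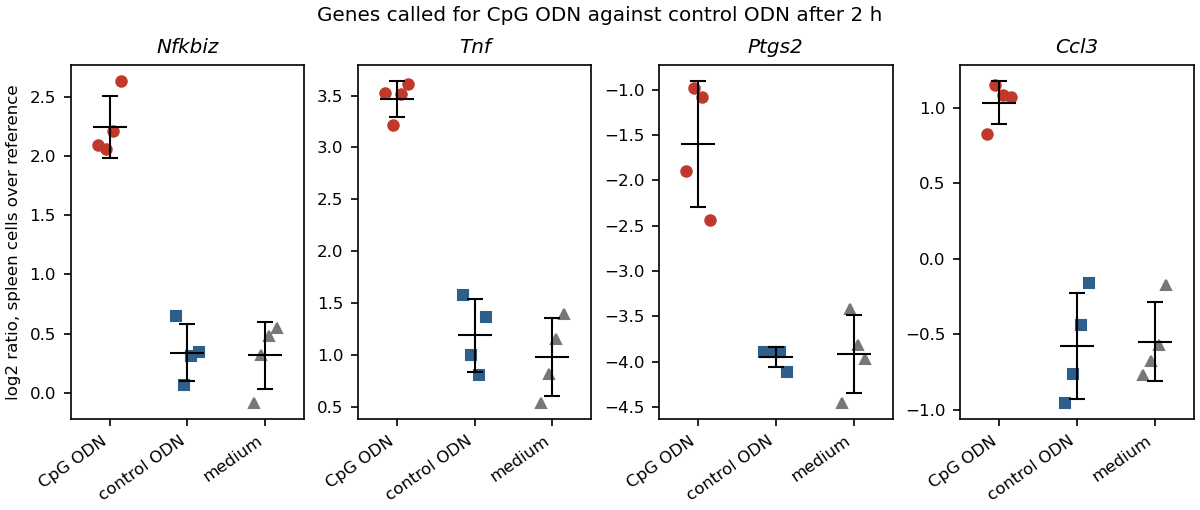
Log2 ratio of spleen cell RNA over reference RNA for the 4 called genes on each array of 2 h, for CpG ODN (circles), control ODN (squares) and medium (triangles), with the mean and SD of each group (n = 4); each panel has its own axis. In every panel the 4 CpG ODN arrays lie above all 8 others, and Ptgs2 shows the widest CpG ODN group (SD 0.69). Every CpG ODN array was above every control ODN array in 0.654% of the 5963 genes on all 8 arrays.

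Medium gave a second baseline. Against it, 4 of 9534 genes (0.0420%) were called higher and 0 lower, and they were Nfkbiz (1.94 ± 0.19), Tnf (2.49 ± 0.23), Ptgs2 (2.31 ± 0.31) and Ccl3 (1.58 ± 0.22, SE). The 2 comparisons share the CpG ODN arrays, so they are no independent checks of each other. Control ODN against medium shares no CpG ODN array, and there limma called 0 of 9239 genes (0%), with an unadjusted p below 0.05 for 103 higher (1.11%) and 126 lower (1.36%). For the called genes that difference was 0.02 for Nfkbiz, 0.21 for Tnf, -0.04 for Ptgs2 and -0.03 for Ccl3. Against medium, CpG ODN had 223 genes higher at an unadjusted p below 0.05 (2.34%) and 303 lower (3.18%). Without medium replicate 1, the calls against medium numbered 11, of which 4 were higher and 7 lower, and control ODN had 2 genes called lower than medium.

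With 4 arrays per group, small differences after 2 h could be missed. How far this held down the number of calls was not tested. The median 95% interval of a gene's difference reached 0.54 to either side, and the smallest called difference was 1.61. In adjusted p the gap after Ccl3 (limma, 1.10e-04) was wide. The next genes in that order were Il12b at 1.34 (adjusted p = 0.202), Sugp1 at 1.89, Bnc1 at 1.83 and Clec4e at 1.00 (adjusted p = 0.334). Sugp1 and Bnc1, with only 2 control ODN arrays each, were not called although their differences were above 1.61. Differences of at least 1 in size were found in 54 genes, 14 higher and 40 lower, of which 4 were called. Of 5963 genes measured on all 8 arrays, 39 had every CpG ODN array above every control ODN array (0.654%) and 46 had every one below (0.771%). Among the genes on all 8 arrays with differences of at least 1 that were not called, Il4i1 and Smarcc1 were higher, and H2-Aa, H2-Eb1, Ighm, Cnr1, Sfrp2 and 4930486L24Rik lower, several of these chosen for mention after their values were seen. In Cnr1 and Sfrp2 the control ODN arrays scattered with an SD of 2.50 and 2.07 and the differences were -1.47 and -1.10.

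The near misses are the 12 higher and 8 lower uncalled genes with the smallest unadjusted p among those with at least 3 arrays in both groups. The 2 h values chose them, so those values are given as a description. Il12b and Clec4e led the higher ones. Il12b encodes the p40 subunit shared by interleukins 12 and 23, which dendritic cells and macrophages make early after Toll-like receptor signals. Its log2 ratio was 1.99, 1.36, 1.30 and 1.55 with CpG ODN, against 0.59, 0.19 and -0.15 on the 3 control ODN arrays with a value and 0.16, -0.04 and 0.48 on 3 medium arrays. Every CpG ODN array was above all the others, and the missing control ODN value was that of replicate 4. Clec4e encodes Mincle, a C-type lectin receptor of macrophages induced by inflammatory signals. It stood at 0.85, 1.35 and 1.08 on 3 CpG ODN arrays, against 0.24, 0.09, 0.03 and 0.01 with control ODN and -0.30, -0.25, -0.14 and 0.41 in medium.

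Il4i1, a secreted amino acid oxidase of activated antigen-presenting cells, was 2.65, 2.56, 2.48 and 3.53 with CpG ODN, against 2.47, 1.41, 1.97 and 0.77 with control ODN. The lowest CpG ODN value, 2.48, was barely above the highest control ODN value of 2.47. Gadd45b, a stress-induced gene of the NF-kB response, was 0.55, 0.88, 0.77 and 1.11, against 0.10, -0.04 and 0.37 on 3 control ODN arrays. Ccl22, a chemokine of dendritic cells and B cells for Ccr4-bearing T cells, was 1.96, 1.10 and 1.19 on 3 CpG ODN arrays, against 1.07, 0.90, 0.10 and 0.11 with control ODN. It overlapped with medium, where the highest array was at 1.24. The other higher near misses were Mboat2, Epha3, Marcksl1, Tspan5, Camk2g, F10 and Adgre4, with differences of 0.54 to 0.94. Camk2g, a calmodulin-dependent kinase, owed its difference to 2 arrays: it was -1.31, -1.20, 0.45 and 0.82 with CpG ODN, against -1.59, -1.20, -1.15 and -1.02 with control ODN. Adgre4, an adhesion receptor of myeloid cells, had 1 low control ODN value, 0.44, against 2.09 to 2.72 on the other control ODN arrays and 2.67 to 3.08 with CpG ODN.

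Of the lower near misses, H2-Aa and H2-DMb1 belong to MHC class II presentation. H2-Aa, the alpha chain of the class II molecule I-A, was 5.59, 5.89, 4.58 and 5.25 with CpG ODN, against 6.30, 6.32, 6.46 and 7.42 with control ODN and 6.71, 6.53, 6.74 and 6.89 in medium. H2-DMb1, a chain of the molecule that loads peptides onto class II, was 2.20, 1.92, 2.29 and 2.28, against 2.46, 2.84, 3.15 and 2.92 with control ODN. Both were below all control ODN and all medium arrays, but their 2 h values chose them. In 0.771% of the 5963 genes on all 8 arrays, every CpG ODN array was below every control ODN array. Dok3, an adaptor that restrains B cell receptor signalling, was 1.69, 1.65, 1.49 and 1.82, against 2.03, 2.02, 2.94 and 2.05. Snap29, Selenoi, Pitpnc1, Abi3 and Gsta2 differed by -0.74 to -0.54. Selenoi, an enzyme of phospholipid synthesis, did not differ from medium in the same way: its mean was -1.81 with CpG ODN, -1.11 with control ODN and -1.79 in medium, so that it was the control ODN arrays that stood apart. A second probe of Pitpnc1 gave -0.23 ± 0.24 (SE), against -0.54 for the one used.

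**Figure D2:**
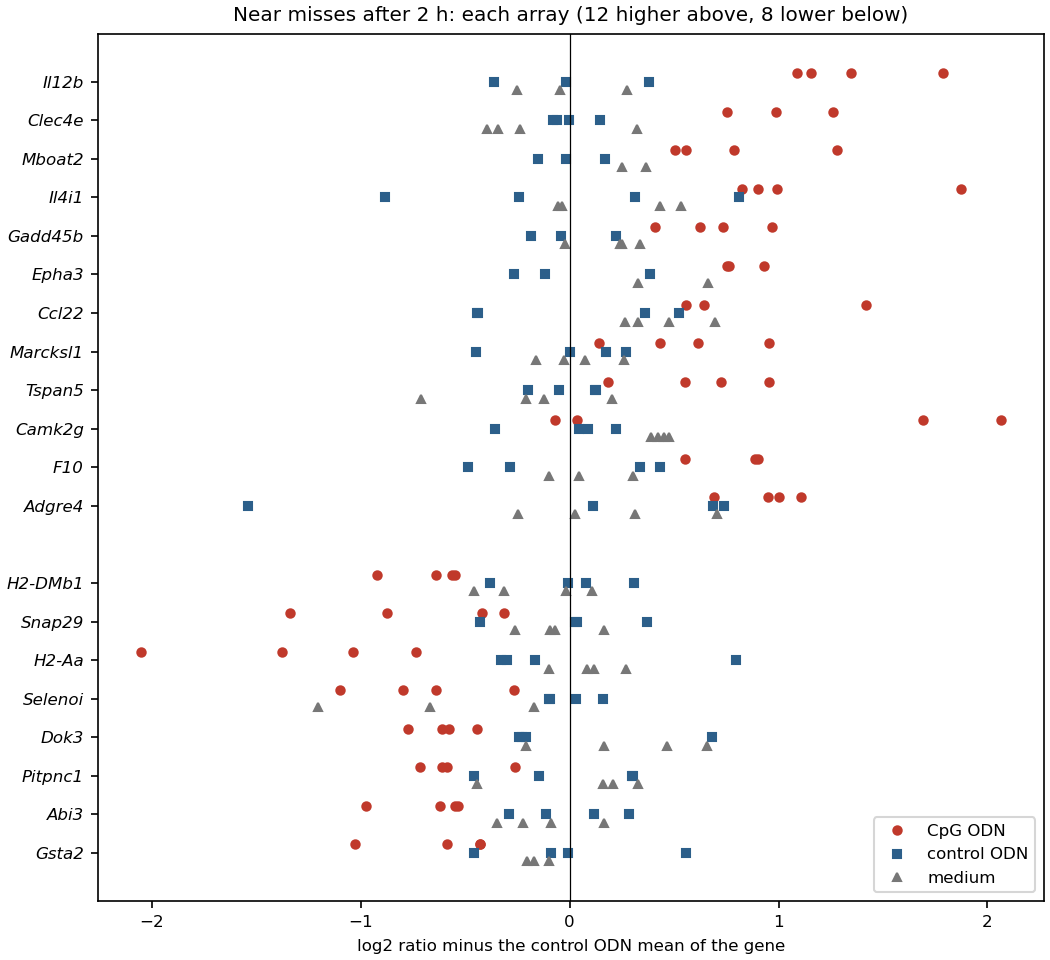
Near misses of 2 h by array, as the log2 ratio minus the control ODN mean of the same gene, with the 12 higher genes above and the 8 lower ones below; circles are CpG ODN, squares control ODN and triangles medium arrays. The CpG ODN arrays of Il12b stand clear of the other groups, Camk2g rests on 2 arrays, and H2-Aa lies below both controls on all 4 arrays. The 2 h values shown are those that chose the genes.

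The near misses were then followed to 4 h and 8 h. The differences at those times did not enter the choice, but each gene's variance, pooled over all arrays in the fit, entered both the choice and the later calls. At 4 h, limma called 5 of the 12 higher ones against control ODN in the same direction, Il12b, Clec4e, Il4i1, Gadd45b and Marcksl1, where 0.384% of the 9630 genes tested were called higher. The median difference of the 12 was 0.85, against -0.01 for all genes, and 8 of the 12 were above 0. With the 2 groups of 4 h alone in the fit, the calls among the near misses numbered 2. None of the 8 lower near misses was called at 4 h (0% of all genes were called lower), and their median was -0.09. At 8 h, 3 of 11 higher ones were called, Il12b, Gadd45b and Marcksl1, where 4.55% of genes were called higher, and 2 of 8 lower ones, H2-DMb1 and Dok3, where 5.45% were called lower. Ccl22 had too few values at 8 h. The medians then were 0.20 for the higher and -0.46 for the lower near misses, against -0.12 for all genes.

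Il12b stood at 1.34 ± 0.30 (SE), 2.85 ± 0.28 and 3.00 ± 0.36 above control ODN at 2, 4 and 8 h. Between 2 h and 8 h its difference grew by 1.66 ± 0.47 (limma adjusted p = 0.0473), a change called for 3.26% of 9141 genes in either direction, while the change between 2 h and 4 h, 1.50 ± 0.41, missed the threshold (adjusted p = 0.822). Gadd45b was at 0.68 ± 0.21, 1.12 ± 0.19 and 1.64 ± 0.22. Il4i1 was at 1.15 ± 0.33, 2.08 ± 0.35 and 0.22 ± 0.38, and Clec4e at 1.00 ± 0.24, 1.18 ± 0.24 and -0.05 ± 0.26. Neither of these last genes was called for a change over time. F10, coagulation factor X, which macrophages also make, was at 0.78 ± 0.27, 0.58 ± 0.25 and -0.70 ± 0.28. Its change between 2 h and 8 h was called (-1.49 ± 0.39, limma adjusted p = 0.0265). The 2 h differences that chose the near misses are part of these changes over time, which therefore are no independent tests. Mboat2, Epha3, Camk2g and Adgre4 had differences between -0.30 and -0.05 at 4 h and were not called at either later time.

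The 4 genes called at 2 h were also called at 4 h and at 8 h. Nfkbiz was higher than control ODN by 1.91, 2.27 and 2.31 at 2, 4 and 8 h, and Tnf by 2.28, 2.96 and 2.51. Ptgs2 was higher by 2.35, 1.74 and 1.83, and Ccl3 by 1.61, 2.33 and 2.04. None of the 4 was called for a change between 2 h and a later time: the changes to 4 h ran from -0.60 ± 0.44 for Ptgs2 to 0.72 ± 0.31 for Ccl3, and those to 8 h from -0.52 ± 0.48 to 0.42 ± 0.34 (SE) for the same genes.

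**Figure D3:**
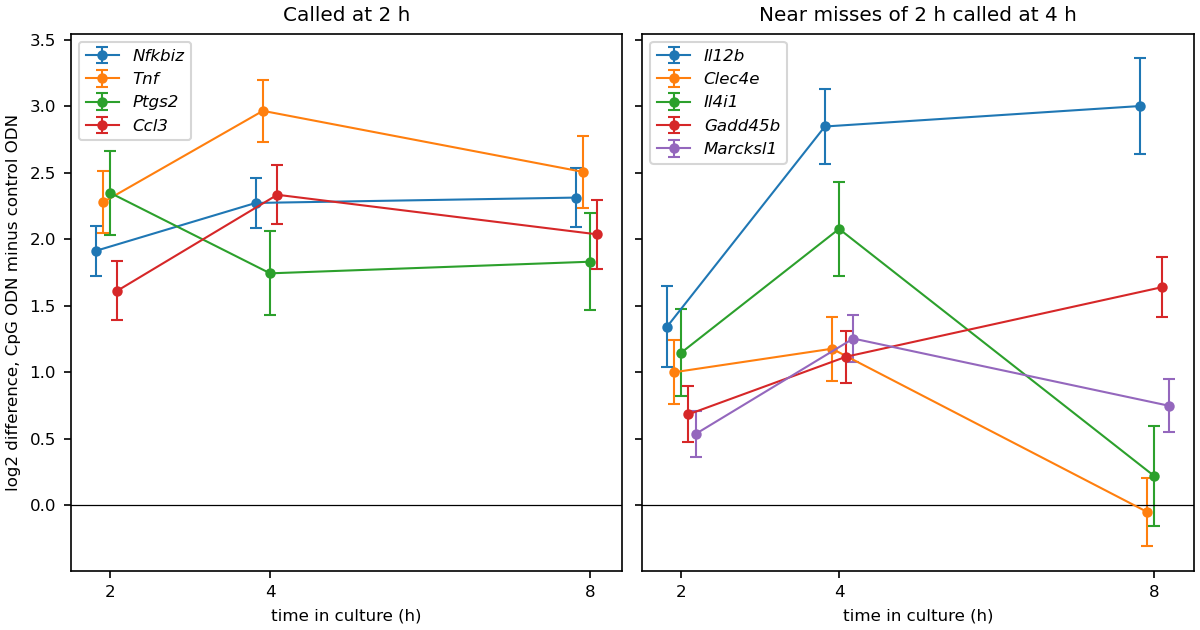
Log2 difference of CpG ODN minus control ODN at 2, 4 and 8 h, with bars of 1 SE, for the genes called at 2 h (left) and the near misses of 2 h called at 4 h (right). The called genes stay between 1.61 and 2.96 throughout, whereas Il12b is at 1.34 after 2 h and near 3 later, and Clec4e and Il4i1 are near 0 at 8 h.

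No gene of the receptor and its proximal pathway passed the test. Of 17 tested members of the Tlr9 pathway list, 0 were called by limma and 1, Map3k8, had an unadjusted p below 0.05. Tlr9 itself was 2.08, 1.97, 1.19 and 0.97 with CpG ODN, against 2.01, 2.32, 2.39 and 0.69 with control ODN, a difference of -0.30 ± 0.36 with an interval of -1.04 to 0.44. Myd88 was at -0.06 ± 0.21 (interval -0.50 to 0.38). Map3k8, the kinase that couples NF-kB signalling to the ERK pathway, was 2.87, 2.50, 2.03 and 2.86, against 2.42, 1.77, 1.93 and 1.77, a difference of 0.59 ± 0.24 that was not called at 2 h (unadjusted p = 0.0228) but was at 4 h (1.22 ± 0.26) and 8 h (1.23 ± 0.35).

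Among NF-kB subunits and IkB inhibitors, 1 of 8 tested members was called, Nfkbiz, where 0.0430% of all genes were called higher. Nfkbia, the classical inhibitor IkB-alpha and itself an NF-kB target, was 2.10, 1.04, 2.12 and 2.36 with CpG ODN, against 1.20, 0.88, 1.44 and 1.69 with control ODN. The groups overlapped through CpG ODN replicate 2, and the difference of 0.60 ± 0.23 was not called (unadjusted p = 0.0127), whereas it was at 4 h (1.21 ± 0.23). The subunit genes Rel, Relb and Nfkb2 were at -0.23, -0.25 and -0.06, and were chosen after their values were seen. Tnfaip3 and Il1b, which were to be reported whatever their values, had no probe with a value.

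Of 29 cytokines 1 was called, Tnf, and of 25 chemokines 1 was called, Ccl3, where 0.0430% of all genes were called higher. The medians over the lists were 0.13 and 0.09, against -0.02 for all genes. Il12b, Il6 and Csf3 among the cytokines, and Ccl22 and Cxcl2 among the chemokines, were higher at an unadjusted p below 0.05 only. At that p 1.08% of all genes were higher, and Csf3 was chosen after its value was seen. Il6 was 1.31, 0.71, 1.21 and 1.32 with CpG ODN, against 0.71, 0.72, 0.34 and 0.90 with control ODN and 0.69, 1.36, 0.97 and 1.11 in medium. The CpG ODN range thus lay inside that of medium, and the difference from control ODN was 0.47 ± 0.20, against 4.00 ± 0.24 at 8 h. Cxcl2, a chemokine for neutrophils, was 2.93, 3.02, 3.42 and 3.21, against 2.50, 2.05, 2.01 and 3.12 with control ODN and 1.98, 2.39, 2.36 and 2.79 in medium. Its difference from control ODN was 0.73 ± 0.30 at 2 h and -0.97 ± 0.35 at 8 h, a called change of -1.70 ± 0.46 (limma adjusted p = 0.0324). Ccl4, the neighbour and close relative of Ccl3, was at 0.09 ± 0.21 (interval -0.34 to 0.52, 3 arrays against 3), in contrast to the 1.61 ± 0.22 of Ccl3, though the difference between the genes was not tested. Il10, an inhibitory cytokine, was at -0.20 ± 0.35.

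Prostaglandin synthesis and signalling had 1 called member of 14, Ptgs2, where 0.0430% of all genes were called higher. Pla2g4a, the phospholipase that releases arachidonic acid for it, was at 0.68 ± 0.30 with 3 arrays against 2 (unadjusted p = 0.034), but at 0.03 ± 0.27 against medium. The other members ran from -0.19 to 0.47.

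Of 27 immediate early and MAPK feedback genes 0 were called. At an unadjusted p below 0.05, where 1.08% of all genes were higher, 2 were higher, Gadd45b and Ier3. The median of the list was 0.08, against -0.02 for all genes, and 20 of its 27 members were above 0. A shift of the list was not tested. Members ran from -0.39 for Nr4a2 to 0.79 for Gadd45a. Fos was at 0.10, Egr1 at 0.00, Dusp1 at -0.28 and Myc at 0.39, and these members were chosen for mention after their values were seen. Ier3, which limits cell death under NF-kB signalling, was -2.33, -2.10, -1.84 and -2.28 with CpG ODN, against -2.70, -2.48, -2.83 and -2.48 with control ODN, a difference of 0.49 ± 0.21.

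No interferon-induced gene passed the test after 2 h. Of 34 tested, 0 were called by limma and 0 had an unadjusted p below 0.05, and their median was -0.05. Ifit1, an antiviral protein, was -0.64, -0.53, -0.17 and -0.35 with CpG ODN, against -0.50, -0.62 and -0.19 on 3 control ODN arrays, a difference of 0.01 ± 0.21 (interval -0.42 to 0.45). By 4 h it was 1.71 ± 0.20 and by 8 h 4.43 ± 0.23 above control ODN. It was the 1 gene of 9260 (0.0108%) called for a change between 2 h and 4 h, by 1.69 ± 0.29 (limma adjusted p = 0.0204). Cxcl10, an interferon-induced chemokine, was at 0.28 ± 0.22, 1.37 ± 0.22 and 4.96 ± 0.26 at 2, 4 and 8 h.

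Of 31 genes of lymphocyte activation and costimulation 0 were called. Cd69, the earliest surface marker of activated lymphocytes, was 3.06, 2.61, 2.76 and 3.78 with CpG ODN, against 2.12, 2.26, 3.16 and 1.28 with control ODN and 2.67, 3.05 and 2.92 on 3 medium arrays. The difference from control ODN was 0.84 ± 0.37 (unadjusted p = 0.0313) and that from medium 0.17 ± 0.40. It was 3.19 ± 0.43 above control ODN at 8 h, a called change of 2.34 ± 0.57 (limma adjusted p = 0.0146). The costimulatory ligand Cd86 was at 0.04 ± 0.31 at 2 h.

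**Figure D4:**
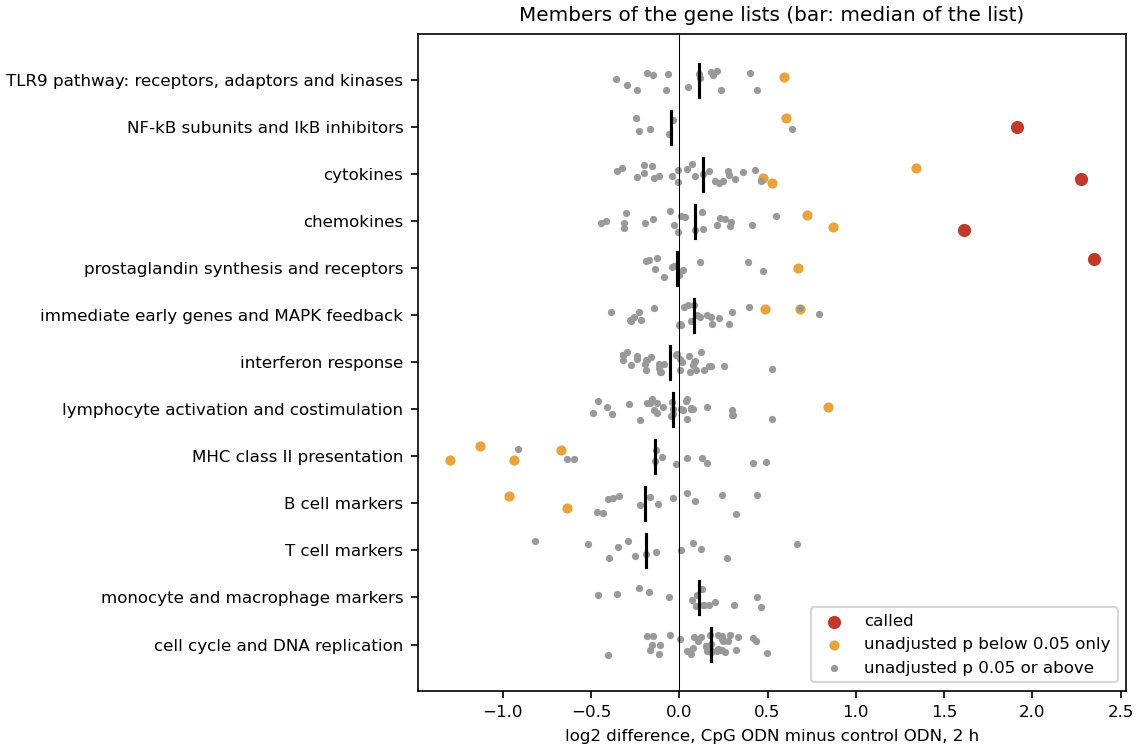
Log2 difference of CpG ODN minus control ODN at 2 h for the tested members of 13 gene lists, 1 point per gene, with a bar at the median of each list and colours for called genes, genes with an unadjusted p below 0.05 only, and the rest. The 4 called genes stand at 1.61 to 2.35, apart from the rest of their lists. The 4 MHC class II genes with an unadjusted p below 0.05 only lie at -1.30 to -0.67, and 5 of the 16 members of that list are above 0.

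The largest differences in the lower direction among the lists were in MHC class II presentation, where 0 of 16 members were called. At an unadjusted p below 0.05, where 1.21% of all genes were lower, 4 members were lower. These were H2-Aa at -1.30 ± 0.45, H2-Eb1 at -1.13 ± 0.46, H2-Ea at -0.94 ± 0.35 and H2-DMb1 at -0.67 ± 0.21 (SE), of which H2-Eb1 and H2-Ea were chosen after their values were seen. H2-Ea was 5.18, 5.76, 6.01 and 5.47 with CpG ODN, against 6.03, 6.53, 6.31 and 7.28 with control ODN. H2-Eb1 was 3.84, 4.53, 5.17 and 4.87, against 5.11, 5.51, 5.77 and 6.53, with 1 CpG ODN array inside the control ODN range. Ciita, the master regulator of class II genes, was at -0.02 ± 0.26, and Cd74, the invariant chain, at -0.60 ± 0.51. Both were chosen after their values were seen. The median of the list was -0.14, and 5 of the 16 members were above 0. Among those 5 were Ctsl at 0.49 ± 0.30 and Rfx5 at 0.42 ± 0.21 (SE), also chosen after their values were seen. At 4 h H2-Aa was at 0.30 ± 0.45 and at 8 h at -0.38 ± 0.52, and neither change over time was called.

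B cell markers had low values on the same arrays. The mean log2 ratio of 10 B cell markers was 1.84 to 2.20 on the CpG ODN arrays, against 2.31 to 2.47 on the control ODN arrays and 2.22 to 2.52 on the medium arrays, so that the CpG ODN range lay below both controls. Of 16 markers tested 0 were called, 5 were above 0 and the median was -0.19, against -0.02 for all genes. Cd72, a B cell coreceptor, was 2.08, 2.01, 1.75 and 1.95 with CpG ODN, against 2.71, 2.45, 3.44 and 3.06 with control ODN (-0.96 ± 0.37, unadjusted p = 0.0151). Ly6d was at -0.64 ± 0.25 and the heavy chain gene Ighm at -1.09 ± 0.45, both chosen after their values were seen. Among the 5 markers above 0 were Blk at 0.44 ± 0.50, Ms4a1 at 0.24 ± 0.51 and Cd22 at 0.09 ± 0.40 (SE). They were chosen after their values were seen, and Blk and Ms4a1 had only 2 control ODN arrays each. The part of cell composition in the class II values was not tested. Ranges overlapped for T cell, NK cell, macrophage, neutrophil, erythroid and platelet markers: T cell markers had a mean of 1.85 to 2.33 with CpG ODN, against 2.06 to 2.57 with control ODN, and monocyte and macrophage markers 1.06 to 1.37, against 0.84 to 1.39. Itgax, the 1 dendritic cell marker on all 12 arrays, was 1.43, 0.71, 1.41 and 1.50 with CpG ODN, against 1.68, 1.57, 1.61 and 1.75 with control ODN. Its ranges did not overlap, as in 0.771% of genes on all 8 arrays in that direction, and the difference of -0.39 ± 0.20 was not called. The other dendritic cell markers were Tcf4 at 0.40, Batf3 at 0.32, Cd209a at 0.25, Flt3 at -0.03 and Ccr7 at -0.12. The median of that list was 0.11.

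**Figure D5:**
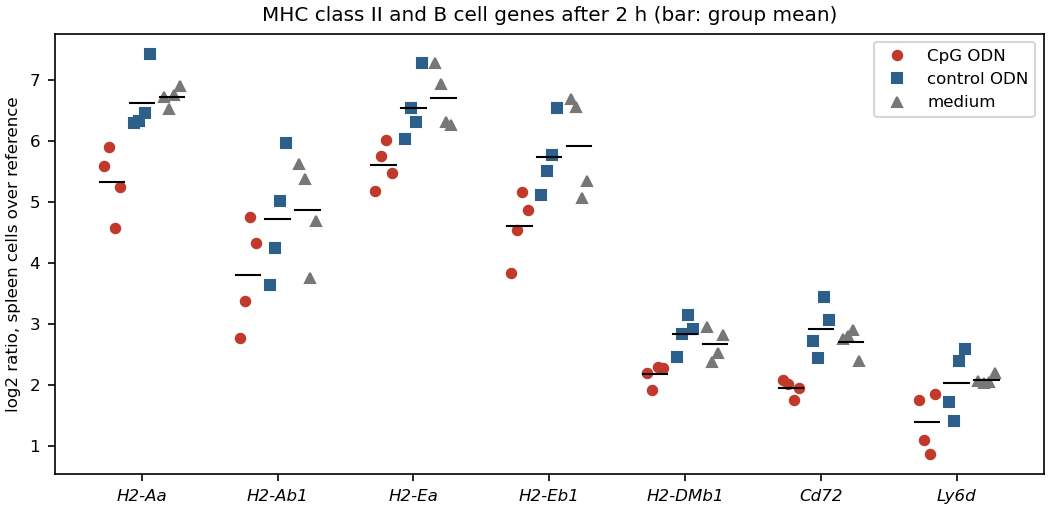
Log2 ratio over reference RNA of 5 MHC class II genes and 2 B cell markers on each array of 2 h, for CpG ODN (circles), control ODN (squares) and medium (triangles), with bars at group means. For H2-Aa, H2-Ea, H2-DMb1 and Cd72 all 4 CpG ODN arrays lie below the 4 control ODN arrays, as in 0.771% of the 5963 genes on all 8 arrays. For H2-Ab1, H2-Eb1 and Ly6d the groups overlap. None of these genes was called, and they were picked by their 2 h values or after these were seen.

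The remaining lists had 0 called members. In the cell cycle list 30 of 38 members were above 0, with a median of 0.18, against -0.02 for all genes. A shift of the list as a whole was not tested. In it 0 members had an unadjusted p below 0.05, and the lowest p was that of Rb1, at 0.42 ± 0.24. Ribosome biogenesis and MYC-driven growth (38 tested, median 0.06), apoptosis and survival (27, median 0.04) and heat shock and the unfolded protein response (20, median -0.00) had no member at an unadjusted p below 0.05. Ldha, the member of the growth list with the lowest p, was at 0.57 ± 0.35, and its 7 other probes ran from -0.18 to 0.27. The marker lists of NK cells (9 tested, median -0.15), dendritic cells (6, median 0.11), neutrophils and myeloid precursors (11, median 0.17), red cell precursors (8, median -0.07) and platelets (5, median 0.09) likewise had no member at that p. Of 12 markers of non-splenic tissues 1 did, Alb, at -0.91 ± 0.39 with 3 arrays against 2. At that p 1.21% of all genes were lower.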

How the data were processed

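Spleen cell RNA was measured on 33 arrays with 2 colours, each against the same reference RNA, with no dye swap per the labels. The deposited log2 values are 1 ratio of Cy5 over Cy3 per probe and array; the log base is not stated and was read as 2 from the range of the values. How the authors corrected background, filtered spots and normalized the arrays is not stated in the labels or file headers. The table holds 16720 probes, 11303 with at least 1 value. Probes were named through the platform annotation, which pairs 14656 with 1 symbol; Entrez identifiers of 14361 were found in RefSeq (GRCm38.p6), which changed 0 symbols, and 1047 measured probes have no symbol and stayed out. A gene with several probes (511 of 9672) was represented by the one with fewest missing values. The number of arrays limits the precision.

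Arrays were centred on their medians. Means of all 9 groups were fitted together by least squares, checked against lmFit and tested on simulated data, with variances moderated by limma 3.58.1 in R 4.3.3 and Benjamini-Hochberg adjustment over all genes tested. A gene needed 2 measured arrays in each compared group. The comparisons were those between the 3 groups at 2 h, CpG ODN against control ODN at 4 h and 8 h, and the change of that difference. Motifs were searched in RefSeq promoter windows.

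Genes named were the called ones, the 12 higher and 8 lower near misses, up to 10 genes called in at least 2 alternatives (none qualified), the 2 members of each functional list and the 1 of each marker list with the smallest p, and a set of names given whatever their values; 2 of these have no values. Genes outside this rule, such as Sugp1, Bnc1 and Olfml3, were chosen after their values were seen, also where the text does not say so. The comparison, members and lists were chosen with earlier results of these data known. Alternatives changed the normalization, centring, array weights, samples in the fit, filter, probe choice, variance model, repeat block and the arrays with early database numbers, and left out each array in turn.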

Additional observations from a re-analysis of the deposited data

Results flagged for a closer look

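A single array stood far from the other 3 of its group in 7 of the 145 groups of 4 tested, about as often as the 1 in 20 that chance gives. The measure is the gap to the nearest array divided by the range, against Dixon's limit for 4 values at a confidence of 95%. On control ODN replicate 4, the array with the fewest measured probes, it was 0.989 for Ptgs2 (-4.12, against -3.90 to -3.89 on the others), 0.855 for H2-Aa (7.42, against 6.30 to 6.46) and 0.881 for Alas2, an enzyme of haem synthesis in red cell precursors (6.49, against 4.53 to 4.77). On control ODN replicate 3 it was 0.966 for Dok3 (2.94, against 2.02 to 2.05) and 0.923 for the interferon-induced Dhx58 (0.41, against 1.06 to 1.11). On CpG ODN arrays it was 0.841 for Il4i1 (replicate 4, 3.53, against 2.48 to 2.65) and 0.889 for Itgax, a dendritic cell marker (replicate 2, 0.71, against 1.41 to 1.50).

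For 15 of the 59 named genes with values, the difference of CpG ODN minus control ODN changed over time (limma, adjusted p below 0.05). Of 9141 genes, 3.26% were called for a change between 2 h and 8 h. Selenoi, F10, Cd14, Rgs2, Rb1, Cmpk2 and Dhx58 were named for a small p at 2 h. The 2 h difference is part of the change, so for them the share of all genes is no fair comparison. From 2 h to 8 h the signed difference increased for Cxcl10 by 4.68, Ifit1 by 4.41, Il6 by 3.52, Cmpk2 by 3.36, Dhx58 by 2.93, Cd69 by 2.34, Il10 by 1.98, Il12b by 1.66, Myd88 by 1.47 and Selenoi by 1.33. It changed by -1.97 for Cd14, -1.70 for Cxcl2, -1.55 for Rgs2, -1.49 for F10 and -1.37 for Rb1. Between 2 h and 4 h it increased for Ifit1 by 1.69.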

How the results depend on the processing

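Nfkbiz, Tnf, Ptgs2 and Ccl3 were called against control ODN under every alternative, with 4 to 6 genes called in all. Leaving out the arrays with early database numbers brought Ccl3 closest to the threshold (1.40, adjusted p = 0.0485). At 2 h these arrays were CpG ODN replicate 1 and control ODN replicates 1 and 2, and no medium array, so the groups lost unequal numbers. Quantile normalization added Il12b (1.58, adjusted p = 0.0099). Against medium, 8 genes were called with quantile normalization and 15 with array weights (6 higher, 9 lower). Leaving out single arrays gave 4 to 11 against medium and 0 to 2 for control ODN against medium, the highest both without medium replicate 1. The 5 near misses called at 4 h became 2 when the fit held just the 8 arrays compared and 3 among genes measured on every array, and 4 to 5 when 1 array was left out. The cause was not tested. Repeat numbers were shared between groups but matched the samples only in part. Over 5543 genes, deviations from the group means of same-numbered CpG ODN and control ODN arrays correlated by 0.57, 0.73, -0.11 and 0.29 for repeats 1 to 4. Only CpG ODN repeats 1 and 2 correlated best with their own number. With the repeat number as a replicate block within each time, 6 genes were called against control ODN, adding Olfml3 (1.45, adjusted p = 0.012) and Clec4e (1.07, adjusted p = 0.030), and 7 against medium (5 higher, 2 lower). With the block in the compared groups alone, Olfml3 and Clec4e were not called at 2 h, where the calls were the 4 genes again, and 1 near miss was called at 4 h. Signs turned only where differences were near 0. When 1 array was left out, the difference ran from -0.210 to 0.0328 for Myd88, from -0.0608 to 0.163 for Ccl4, from -0.529 to 0.146 for Il10, from -0.0767 to 0.137 for Ifit1 and from -0.201 to 0.218 for Cd86. Ifit1 was also at -0.0244 with quantile normalization, -0.0105 with the block in the compared groups and -0.0900 with early number as a covariate, and Cd86 at -0.139 with array weights.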
